A study of Mus musculus with 8 samples.

Results

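Retinal pigment epithelium (RPE) genes for keratins, cell junctions, ion and lactate transport and phagocytosis were examined in photoreceptor cells isolated at P8 from mice labelled Lpcat1 HZ or Lpcat1 KO. The 9 genes were Krt8, Krt18, Cldn1, Cldn19, Cdh3, Slc16a8, Best1, Slc26a7 and Mertk. They were chosen by name as genes of RPE structure and function, and their probes were found through the RefSeq accession that the array files give for each probe. This gave 10 probes, a pair of them for Slc26a7, of 56605 probes and 22911 named genes on the array. Signal intensity was measured on a single-color Agilent microarray, with 4 arrays labelled HZ and 4 labelled KO. The labels give the strain as C57BL/6, and per the study's methods the Lpcat1 deletion was made on a C57BL6/N background that was then crossed with C57BL6/J to remove the rd8 mutation of Crb1, so the background mixes these substrains. The HZ control carries 1 deleted Lpcat1 allele and the KO carries the deletion on each allele, in every tissue, and mice homozygous for rd8 were not used. Cells were released from whole retina with trypsin and collected with magnetic beads against CD73, a surface marker of photoreceptor cells. The sources used here do not say whether the 4 samples of a label came from separate mice, so p-values measure the spread between these samples.

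The RPE is a single layer of pigmented epithelial cells that lies against the tips of the photoreceptor outer segments. Its cells are held together by tight and adherens junctions that form the outer blood-retinal barrier. They move fluid, chloride and lactate from the subretinal space toward the choroid, and each day they engulf the shed tips of the outer segments. Keratin 8 and keratin 18 are the intermediate filament pair of simple epithelia, including the RPE.

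Of the 9 genes, 7 were tested, since their signal was well above background on 4 arrays or more. The mean of the arrays labelled KO was below that of the arrays labelled HZ for 7 of 7, against 49.5% of all tested probes, and 4 of 7 passed the test in that direction: Slc16a8, Krt8, Cldn1 and Cdh3. To pass, a probe needed a fold change over 1.5 together with an adjusted p (limma, Benjamini-Hochberg) under 0.5, the looser pair of thresholds in the study's methods, so many of the calls that pass can be false. Over all 34303 tested probes, 0.813% passed with a lower signal on KO and 0.227% with a higher one. At the stricter pair (1.2 and 0.05), limma called 0 of the 7 genes and 0 of 34303 probes, while 2803 probes, or 8.17%, had an unadjusted p under 0.05 and the methods' t-test called 2 probes. The 4 genes that passed also had an unadjusted p under 0.05. Of all 34303 tested probes, 3.48% were lower on KO with an unadjusted p under 0.05. The median log2 difference, KO minus HZ, was −0.79 over the 7 genes and 0.0023 over all tested probes. In RNA of a whole cell preparation, fewer RPE cells or fragments and less RNA of these genes per cell cannot be told apart. Cdh3, Cldn1 and Mertk cleared the background on all 4 HZ arrays but on 2 KO arrays, and Krt8 on 4 HZ arrays but on 3 KO arrays. The HZ arrays alone thus carried these genes past the filter.

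The array set had limits that touch these results. On the slide that held all 8 arrays, KO took row 1 and HZ took row 2, so genotype and position on the slide cannot be told apart. The replicate number was also the column on the slide. The 75th percentile of the spot signals lay between 882 and 1024 intensity units on the 8 arrays, and the software marked 458 spots of HZ replicate 4 as non-uniform, where other arrays had 2 to 25. The probe of Lpcat1, the deleted gene, gave log2 signals of −0.81, −0.95, −1.02 and −1.17 on HZ replicates 1 to 4 and −0.97, −1.17, −1.11 and −0.85 on KO replicates 1 to 4. The groups overlapped (difference −0.037, 95% interval −0.29 to 0.22, limma adjusted p 0.931), and whether this probe lies in the deleted region is not given in the sources used here, so it does not check the labels.

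**Figure D1:**
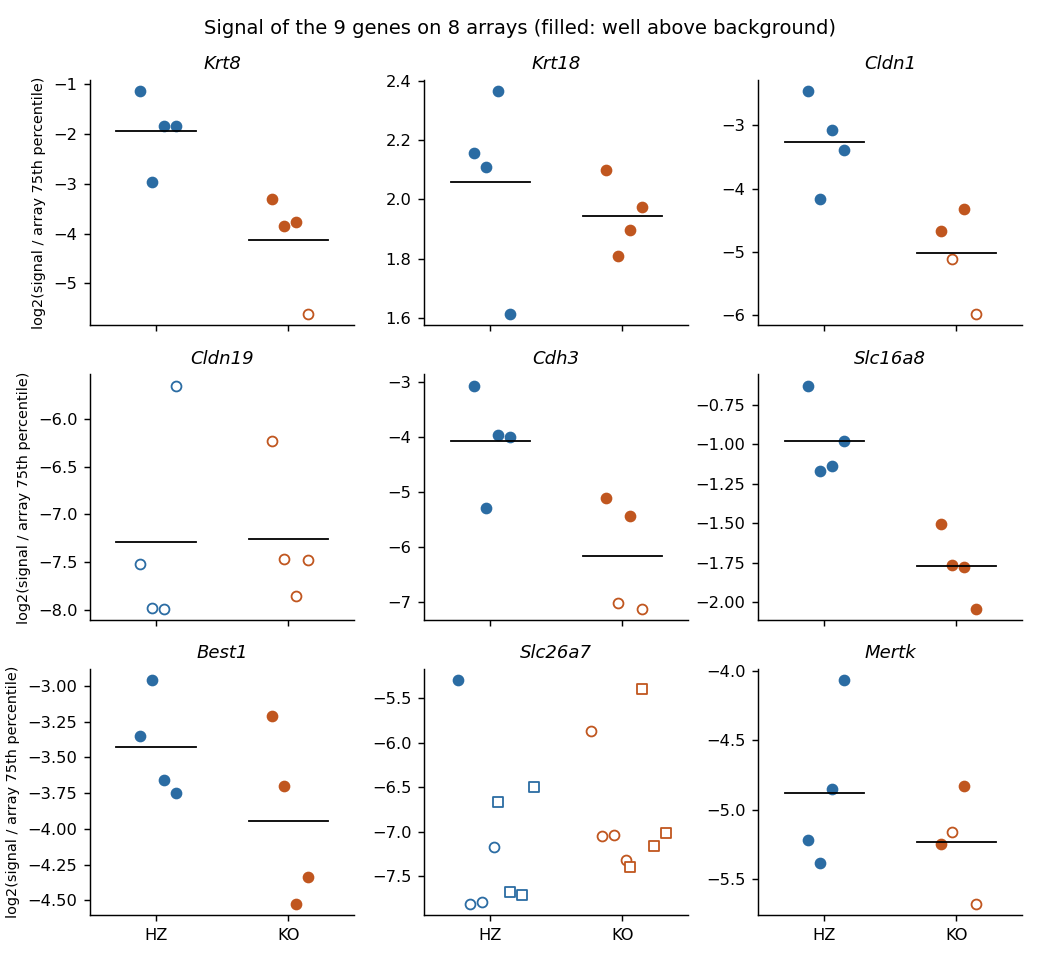
Log2 signal relative to each array's 75th percentile for the 9 genes, with 4 arrays labelled HZ and 4 labelled KO. Each point is an array, filled where the probe was well above background, squares are the dimmer Slc26a7 probe, lines are group means, and the vertical scales differ between panels. For Krt8, Cldn1 and Slc16a8 every KO point lies below every HZ point, for Krt18 the groups overlap, and nearly all points of Cldn19 and Slc26a7 are open.

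The promoters of the keratin pair, of the called genes Slc16a8 and Cldn1 and of Best1 are shown, since some of these genes moved together on the arrays and others did not. Each run holds the 250 bases upstream of the start site, 5′ to 3′ on the gene's strand, from RefSeq on GRCm38.p6, where 7 of the 9 genes have a promoter listed, Cldn19 with 2 starts. Capitals mark matches on either strand to any of 6 motifs. Searched were CATGTG, an E-box bound by MITF, and the related E-box CACGTG. Also searched were TAATCC, which is bound by CRX and OTX2, and TGANTCA, the AP-1 site. The last were GGGCGG, the SP1 site, and TATAA, the core of a TATA box. A base could count in more than 1 motif.
Krt8, chr15:102004343-102004592, minus strand: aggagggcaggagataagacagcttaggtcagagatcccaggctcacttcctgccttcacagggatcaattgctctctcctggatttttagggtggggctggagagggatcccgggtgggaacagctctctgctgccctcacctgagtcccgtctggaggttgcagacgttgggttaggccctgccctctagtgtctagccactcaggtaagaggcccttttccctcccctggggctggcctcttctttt
Krt18, chr15:102027966-102028215, plus strand: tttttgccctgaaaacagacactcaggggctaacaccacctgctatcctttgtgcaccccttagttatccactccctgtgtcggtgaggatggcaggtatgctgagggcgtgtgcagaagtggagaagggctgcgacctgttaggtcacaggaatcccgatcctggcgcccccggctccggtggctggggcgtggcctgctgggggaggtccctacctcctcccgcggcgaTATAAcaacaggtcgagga
Slc16a8, chr15:79254749-79254998, minus strand: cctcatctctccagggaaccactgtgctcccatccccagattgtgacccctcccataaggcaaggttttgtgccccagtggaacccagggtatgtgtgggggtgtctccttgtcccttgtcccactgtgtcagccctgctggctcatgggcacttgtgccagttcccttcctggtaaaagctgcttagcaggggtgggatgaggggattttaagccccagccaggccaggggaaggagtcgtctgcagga
Cldn1, chr16:26371840-26372089, minus strand: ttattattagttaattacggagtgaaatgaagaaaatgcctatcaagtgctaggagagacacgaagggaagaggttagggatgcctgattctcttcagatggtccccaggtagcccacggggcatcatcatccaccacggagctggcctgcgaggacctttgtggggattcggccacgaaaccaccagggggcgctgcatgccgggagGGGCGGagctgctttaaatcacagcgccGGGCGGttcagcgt
Best1, chr19:10001634-10001883, minus strand: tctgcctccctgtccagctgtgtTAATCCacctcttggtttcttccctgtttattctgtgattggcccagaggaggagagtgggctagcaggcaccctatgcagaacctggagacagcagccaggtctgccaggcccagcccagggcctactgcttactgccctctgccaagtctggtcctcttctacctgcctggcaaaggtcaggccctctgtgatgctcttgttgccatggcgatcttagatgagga
The start sites of Krt8 and Krt18 lie 23.9 kb apart on chromosome 15, on opposite strands. The Krt18 window holds a TATAA match at position −19 from the start site, and the windows of Krt8 and Slc16a8 hold none of the motifs. The Cldn1 window holds GGGCGG at −42 and −14, and that of Best1 holds TAATCC at −227. Over all 32851 listed promoters of this length, 32.7% hold GGGCGG, 22.8% TATAA, 12.3% CATGTG, 6.75% TGANTCA, 6.25% TAATCC and 6.02% CACGTG. Such matches describe letters only.

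Of the keratins, Krt8 was called and Krt18 was not. Krt8, the type II partner, gave log2 signals of −1.13, −2.96, −1.84 and −1.83 on HZ replicates 1 to 4 (444.7, 131.8, 255.6 and 247.6 intensity units). On KO replicates 1 to 4 it gave −3.30, −3.86, −3.77 and −5.62 (91.37, 68.73, 67.07 and 18.83 intensity units). The groups did not overlap, HZ replicate 2 was the lowest of its group, and KO replicate 4 was the lowest of all and not well above background. Krt8 fell by 2.20 on the log2 scale (4.58-fold, standard error 0.55, 95% interval −3.46 to −0.93, unadjusted p 0.00387, adjusted p 0.414 in limma). With normexp background correction, which raises dim signals, the difference was −1.34 (adjusted p 0.150).

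Krt18, the type I partner with which keratin 8 forms filaments, gave log2 signals of 2.15, 2.11, 2.37 and 1.61 on the arrays labelled HZ. On those labelled KO it gave 2.10, 1.81, 1.90 and 1.97. The groups overlapped, and the lowest value of all was that of HZ replicate 4. The difference was −0.12 (standard error 0.16, 95% interval −0.49 to 0.26, adjusted p 0.846 in limma). For the total Krt18 signal, the interval thus leaves out a change of the size seen for Krt8. The Krt18 probe was brighter (mean 4041 intensity units on HZ, against 270 for Krt8). Which cells gave its signal was not tested, so a change in the RPE alone cannot be read from it. The difference was −0.26 without HZ replicate 4 (unadjusted p 0.0459, adjusted p 0.686), the array with the most non-uniform spots. Without HZ replicate 3 it was −0.014 (adjusted p 0.991). The value also moved by over 1.5 times without KO replicate 2, to −0.070. Within each array, Krt8 minus Krt18 was −3.28, −5.06, −4.21 and −3.44 on HZ replicates 1 to 4 and −5.39, −5.66, −5.66 and −7.60 on KO replicates 1 to 4. Its zero depends on the probes, so only its shift between labels can be read. The mean shift, KO minus HZ, was −2.08, and the lowest value, on KO replicate 4, rests on a Krt8 spot that was not well above background. This contrast was chosen after the values of the pair were seen, so it is a description with no test.

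**Figure D2:**
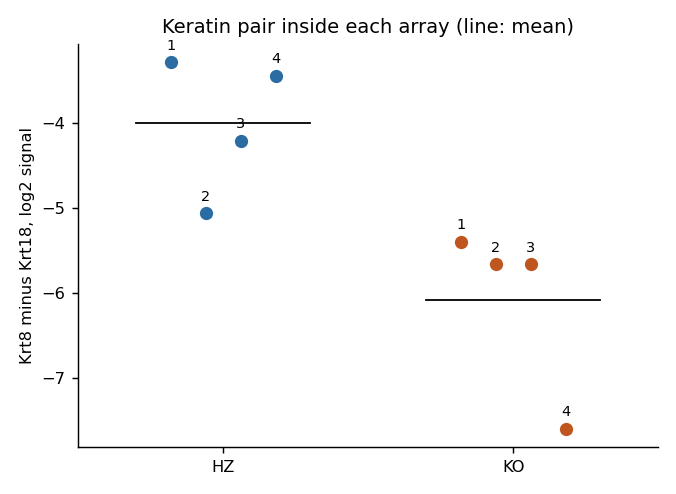
Krt8 minus Krt18 log2 signal inside each array, numbered by replicate, for 4 arrays labelled HZ and 4 labelled KO, with lines at the group means. The 4 arrays labelled HZ lie between −5.06 and −3.28 and the 4 labelled KO between −7.60 and −5.39.

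The other 16 genes of keratin filaments and desmosomes, the spot junctions to which keratins attach, did not pass the test. Of these, 8 were tested, 5 of them were lower and 3 higher on KO, against 49.5% of all tested probes lower. By limma 0 of these genes were called in either direction, 0 had an unadjusted p under 0.05, and the median difference was −0.072. The 4 largest differences were those of Krt7 (−0.61, standard error 0.67), Krt80 (−0.46, standard error 0.36), Plec, which encodes the linker plectin (0.22, standard error 0.19), and Evpl, which encodes envoplakin (−0.18, standard error 0.17). Dsp, Dsg2, Dsc2, Krt19, Eppk1 and Ppl were well above background on no array.

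Among the junction genes, Cldn1 and Cdh3 were called and Cldn19 was not measurable. Cldn1, a claudin of epithelial tight junctions, gave log2 signals of −2.46, −4.16, −3.08 and −3.39 on HZ replicates 1 to 4. On KO replicates 1 to 4 it gave −4.66, −5.11, −4.32 and −5.99, and replicates 2 and 4 were not well above background. The groups did not overlap, with HZ replicate 2 and KO replicate 3 nearest to each other. Cldn1 fell by 1.75 (3.36-fold, standard error 0.44, 95% interval −2.76 to −0.74, unadjusted p 0.00395, adjusted p 0.415 in limma). With normexp the difference was −0.76 (adjusted p 0.219).

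Cdh3 encodes P-cadherin, the calcium-dependent adhesion protein of RPE adherens junctions, whose loss in people leads to sparse hair and macular dystrophy. It gave log2 signals of −3.06, −5.29, −3.96 and −4.00 on HZ replicates 1 to 4 (116.3, 26.21, 58.91 and 55.03 intensity units). On KO replicates 1 to 4 it gave −5.10, −7.01, −5.44 and −7.13 (26.12, 7.723, 21.09 and 6.637 intensity units). The groups overlapped, since HZ replicate 2 lay below KO replicate 1, and KO replicates 2 and 4 were not well above background. Cdh3 fell by 2.09 (4.26-fold, standard error 0.60, 95% interval −3.47 to −0.71, unadjusted p 0.00819, adjusted p 0.459 in limma). It was the called gene whose size moved most with normexp, to −0.70 (adjusted p 0.272), and with quantile normalization it was no longer called (−1.97, adjusted p 0.529).

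Cldn19, a main claudin of the RPE tight junction, was well above background on 0 of 8 arrays. Its log2 signals were −7.52, −7.98, −7.99 and −5.65 on HZ replicates 1 to 4 and −6.23, −7.47, −7.86 and −7.47 on KO replicates 1 to 4. These values have no order between the groups, and no fold is given.

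Of 28 further genes of tight and adherens junctions, 23 were tested, and the median difference was 0.050. On KO 9 were lower and 14 higher, against 49.5% of all tested probes lower. F11r, which encodes the junctional adhesion molecule JAM-A, passed the test and rose by 0.81 (standard error 0.18, adjusted p 0.362 in limma). It was the only gene of this list to pass as higher, and 0 passed as lower. Of all tested probes, 0.227% passed as higher and 0.813% as lower. Every KO array lay above every HZ array for 1 gene of this list, F11r, and below for 1. The shares of all tested probes were 4.19% above and 2.14% below. The other large differences were those of Cldn5, the claudin of endothelial cells (1.24, standard error 0.61), Cgnl1, which encodes paracingulin (0.47, standard error 0.22), and Marveld3, a tight junction membrane protein (−0.43, standard error 0.26). Of genes chosen after their values were seen, Cdh2, the N-cadherin of retinal neurons, differed by −0.089 and Tjp1, the scaffold protein ZO-1, by −0.13. Cdh1, which encodes E-cadherin, was well above background on 1 array and Ocln, which encodes occludin, on 0.

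Of the transport genes, Slc16a8 had the lowest unadjusted p of the 9. Slc16a8 encodes MCT3, the lactate transporter of the basal side of the RPE. It gave log2 signals of −0.63, −1.17, −1.13 and −0.98 on HZ replicates 1 to 4 (629.4, 454.9, 418.4 and 447.3 intensity units). On KO replicates 1 to 4 it gave −1.51, −1.76, −1.78 and −2.04 (316, 293.1, 266.6 and 225.5 intensity units). The groups did not overlap, every array was well above background, and the spread within a label (SD 0.25 on HZ and 0.22 on KO, n = 4 each) was smaller than that of Krt8, Cldn1 or Cdh3. Slc16a8 fell by 0.79 (1.73-fold, standard error 0.16, 95% interval −1.16 to −0.43, unadjusted p 0.000928, adjusted p 0.334 in limma), and by normexp the difference was −0.62 (adjusted p 0.138).

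Best1 encodes bestrophin, the calcium-activated chloride channel of the basal RPE membrane that is mutated in Best vitelliform macular dystrophy. It gave log2 signals of −3.35, −2.96, −3.66 and −3.75 on HZ replicates 1 to 4 and −3.21, −3.70, −4.52 and −4.34 on KO replicates 1 to 4. The groups overlapped, and KO replicate 1 lay above 3 of the 4 arrays labelled HZ. The difference was −0.51 (standard error 0.31, 95% interval −1.22 to 0.19, adjusted p 0.692 in limma). The interval holds both 0 and the size seen for Slc16a8. It was −0.76 without KO replicate 1 (unadjusted p 0.0220, adjusted p 0.608), −0.32 without KO replicate 3 (adjusted p 0.786) and −0.29 with normexp (adjusted p 0.511). With the replicate number as a block the unadjusted p was 0.0400 and the adjusted p 0.411, but the fold change stayed under 1.5.

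Slc26a7, an anion exchanger and chloride channel of the SLC26 family, was well above background on HZ replicate 1 alone with its brighter probe, and on 0 arrays with the dimmer one. The brighter probe gave log2 signals of −5.30, −7.81, −7.79 and −7.17 on HZ replicates 1 to 4 and −5.87, −7.04, −7.04 and −7.32 on KO replicates 1 to 4. No fold is given.

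Of 30 other channels and transporters, 25 were tested, and the median difference was −0.15. On KO 17 were lower and 8 higher, against 49.5% of all tested probes lower. In this list 2 passed as lower and 0 as higher, against 0.813% and 0.227% of all tested probes. Clic6, an intracellular chloride channel protein, fell by 2.14 (standard error 0.58, adjusted p 0.440 in limma). Car14, a membrane carbonic anhydrase found in the RPE and in Müller glia, fell by 1.28 (standard error 0.26, adjusted p 0.346). Every KO array lay below every HZ array for each of these genes, against 2.14% of all tested probes. Cacna1d, an L-type calcium channel subunit, differed by −0.71 (standard error 0.60), and Atp1b1, a subunit of the sodium pump, by −0.50 (standard error 0.17, adjusted p 0.524). Among genes chosen after their values were seen, Bsg, the basigin that carries MCT3 to the membrane and is also made by photoreceptors, differed by 0.15 (standard error 0.094). Slc16a1, which encodes the widely expressed MCT1, differed by −0.31 (standard error 0.13, adjusted p 0.610), and neither passed.

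Mertk, the receptor tyrosine kinase by which RPE cells engulf outer segment tips, was dim. It gave log2 signals of −5.22, −5.39, −4.85 and −4.07 on HZ replicates 1 to 4 and −5.25, −5.16, −4.83 and −5.68 on KO replicates 1 to 4, of which replicates 2 and 4 were not well above background. The groups overlapped, and HZ replicate 4 was the highest. The difference was −0.35 (standard error 0.30, 95% interval −1.04 to 0.34, adjusted p 0.760 in limma), and normexp gave −0.081. It was −0.079 when HZ replicate 4 was left out and −0.20 when KO replicate 4 was.

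None of 24 other genes of phagocytosis passed the test. Of these, 22 were tested, 4 were lower and 18 higher on KO, against 49.5% of all tested probes lower. By limma 0 were called in either direction, and the median difference was 0.13. An unadjusted p under 0.05 in limma was found for 3, against 8.17% of all tested probes. Tyro3, the receptor of the Mertk family found in neurons, differed by −0.51 (standard error 0.094, adjusted p 0.328), and Itgav, the integrin alpha subunit that docks outer segments, by −0.47 (standard error 0.084, adjusted p 0.328). Every array labelled KO lay below every array labelled HZ for each of these, against 2.14% of all tested probes, and each fold change was under 1.5. Lgals3, the macrophage and glial lectin galectin-3, differed by 1.02 (standard error 0.55, adjusted p 0.670) and Anxa2 by 0.56 (standard error 0.17, adjusted p 0.479, fold change under 1.5). For Anxa2 every array labelled KO lay above every array labelled HZ, against 4.19% of all tested probes. Of genes chosen after their values were seen, the Mertk ligands differed by 0.16 for Gas6 and by −0.014 for Pros1, and Mfge8, the bridging ligand of the integrin, by 0.025.

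**Figure D3:**
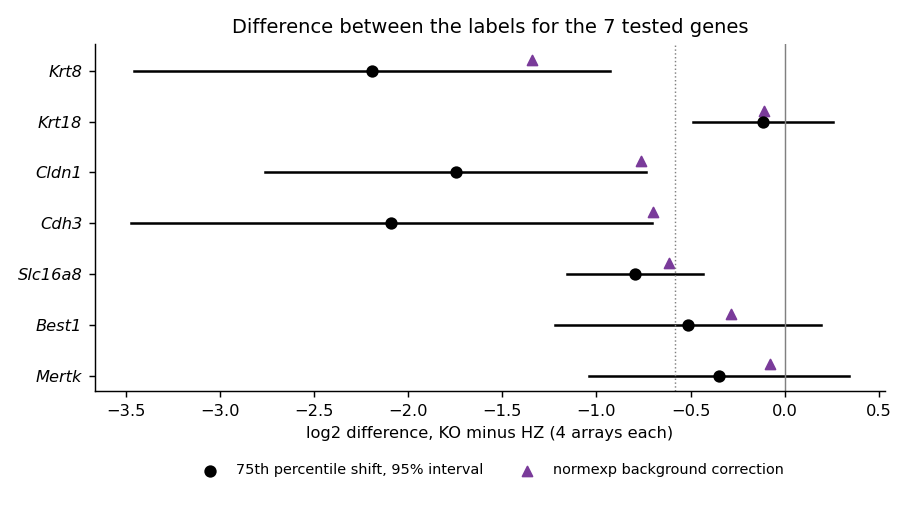
Log2 difference, KO minus HZ, of the 7 tested genes. Circles and bars are the limma difference and its 95% interval with the 75th percentile shift, triangles are the difference with normexp background correction, and the dotted line marks a 1.5-fold lower signal. The intervals of Krt8, Cldn1, Cdh3 and Slc16a8 lie below 0, those of Krt18, Best1 and Mertk cross it, and each triangle lies nearer to 0 than its circle.

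The called genes ordered the arrays alike. Among the arrays labelled HZ, replicate 1 was the highest for 4 of the 4 and replicate 2 the lowest for 4 of the 4. Among those labelled KO, replicate 4 was the lowest for 4 of the 4, and replicate 1 was the highest for 3 and replicate 3 for 1. The tested genes that were not called shared only part of this order. Of the HZ arrays, Best1 was highest on replicate 2, Krt18 on replicate 3 and Mertk on replicate 4. Mertk was lowest on HZ replicate 2 and KO replicate 4, as the called genes were. The share of all tested probes with the order of the called genes was not computed. Every array labelled KO lay below every array labelled HZ for 3 of the 7 tested genes, against 2.14% of all tested probes, while 4.19% of them had every KO array above every HZ array. When arrays were paired by replicate number, and so by slide column, KO was lower in 4 of 4 pairs for Slc16a8 (−1.06 to −0.59), Krt8 (−3.79 to −0.90), Cldn1 (−2.60 to −0.95) and Cdh3 (−3.13 to −1.47). It was lower in 3 of 4 pairs for Krt18 and Best1 and in 2 of 4 for Mertk. For Slc16a8, Krt8 and Cldn1 the count of pairs follows from the lack of overlap between the groups. The share of all tested probes lower in 4 of 4 pairs was not computed. With the replicate number as a block, the same 4 genes were called, with adjusted p from 0.308 to 0.334, while the calls over all probes rose to 913 lower and 254 higher.

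The calls rested on the full set of arrays, although the sizes moved less. With HZ replicate 3, KO replicate 3 or KO replicate 4 left out, limma called 0 of the 34303 probes in either direction, so that no call given here for any gene was left, and without HZ replicate 1 it called 1. The counts at an unadjusted p under 0.05 were then 2018, 2399, 2145 and 2376. Without KO replicate 2 it called 42 lower and 15 higher, none of them one of the 9 genes. Slc16a8 then had adjusted p of 0.733, 0.647, 0.620, 0.626 and 0.618 in that order. Without HZ replicate 4 Slc16a8 alone was called, with adjusted p of 0.543 for Krt8, 0.522 for Cldn1 and 0.605 for Cdh3. Without KO replicate 1 Slc16a8 and Krt8 were called, with adjusted p of 0.514 for Cldn1 and 0.511 for Cdh3. Without HZ replicate 2 all 4 were called, as were 1361 probes in the lower direction. Over the 8 arrays left out in turn, the difference ran from −2.53 to −1.70 for Krt8, from −2.05 to −1.43 for Cldn1, from −2.49 to −1.75 for Cdh3 and from −0.88 to −0.68 for Slc16a8.

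The tested genes listed as RPE markers were also lower on KO. How much of their signal came from cells other than the RPE was not tested. In a list of 20 RPE markers that holds none of the 9 genes, 18 were tested. Of these, 18 were lower on KO, against 49.5% of all tested probes, and 11 passed as lower, against 0.813%. The median difference was −1.29, from −2.38 to −0.072. Every KO array lay below every HZ array for 8 of the 18, against 2.14% of all tested probes. Gpr143 and Mlana passed and are named after their values were seen. Gpr143 cleared the background on 4 HZ arrays and 1 KO array, and Mlana on 4 HZ arrays and 3 KO arrays. The HZ arrays alone thus carried both past the filter. The lists of markers and of related genes were drawn up with earlier results of these data known, so these counts are no independent evidence of their direction. The brightest markers were Dct, a melanin enzyme (−1.45, standard error 0.41, adjusted p 0.448 in limma), and Ttr, the thyroid hormone and retinol carrier (−2.00, standard error 0.55, adjusted p 0.441), and the groups did not overlap for either. The summed signal of the 18 markers ran from 14.1 to 40.6 times the 75th percentile on HZ (median 23.7) and from 4.83 to 11.7 on KO (median 9.49), without overlap. Lrat and Slc45a2 were not measured well enough to be tested.

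Array by array, the mean of the 7 tested genes, each centred on its own mean over the 8 arrays, was 0.96, 0.087, 0.61 and 0.57 on HZ replicates 1 to 4 and −0.073, −0.62, −0.33 and −1.20 on KO replicates 1 to 4. The median of the 18 RPE markers, centred likewise, was 1.30, 0.0072, 0.70 and 0.92, and then −0.26, −0.75, −0.40 and −1.30. Both were highest on HZ replicate 1, lowest of the HZ arrays on replicate 2 and lowest of all on KO replicate 4. Single genes differed from this mean. Of the HZ arrays, Best1 was highest on replicate 2, Krt18 on replicate 3 and Mertk on replicate 4. The part of RPE content in the differences of the 9 genes was not tested.

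**Figure D4:**
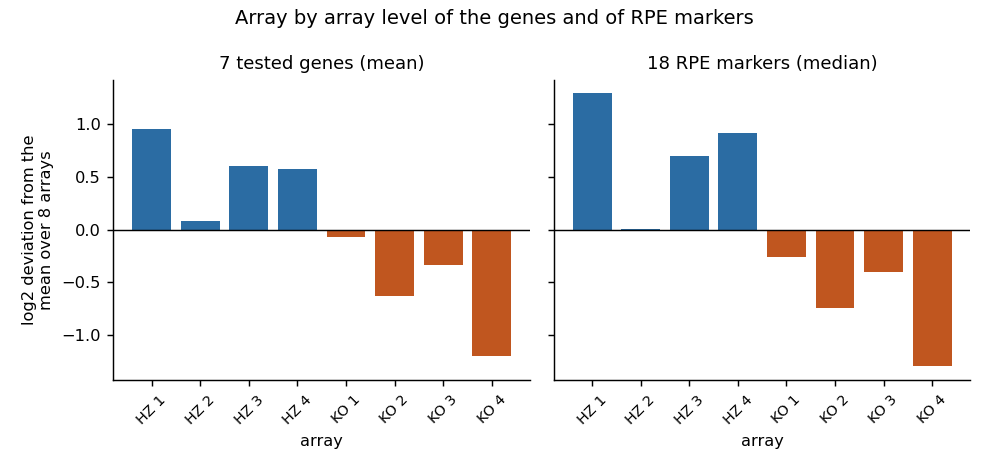
Log2 deviation from the mean over 8 arrays for each array, as the mean of the 7 tested genes (left) and the median of 18 RPE markers (right). In each panel HZ replicate 1 is the highest bar, HZ replicate 2 lies near 0 and KO replicate 4 is the lowest bar.

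Of 14837 genes compared, those whose centred values lay nearest to the mean profile of the 7 genes over the 8 arrays were Slc6a13, Mia, Car14, Tspan10 and Ephx1. Their root-mean-square distances were 0.173, 0.185, 0.188, 0.190 and 0.197 on the log2 scale. Slc6a13, a GABA and taurine transporter, differed by −0.88 (adjusted p 0.487), Mia by −0.89 (adjusted p 0.422), Tspan10, a tetraspanin of pigment cells, by −1.17 (adjusted p 0.441) and Ephx1, the microsomal epoxide hydrolase, by −0.98 (adjusted p 0.362). All 5 were called lower, which the choice by likeness to a profile that is lower on KO makes likely. Of the 7 genes themselves, Slc16a8 lay nearest to the mean profile (0.27) and Cdh3 farthest (0.72).

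Markers of other cells did not pass the test in this direction. Rod markers gave strong signals on every array, with mean log2 signals of 7.15 on HZ and 7.14 on KO for Nrl, the rod-defining transcription factor, and of 7.22 and 6.94 for Rom1, an outer segment membrane protein. Of 12 rod markers, 12 were tested, 10 were lower and 2 higher, against 49.5% of all tested probes lower. In limma 0 passed and 0 had an unadjusted p under 0.05. The median difference was −0.10, and the summed signal was 934 to 1172 on HZ and 916 to 1037 on KO. Of 8 Müller glia markers, 0 passed, the median was −0.20 and the sums were 14.7 to 26.4 and 12.6 to 26.1, with Apoe at 0.019 and Glul at 0.071. Their part in the differences of the 9 genes was not tested.

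Microglia markers ran opposite, with 10 of 10 higher on KO and a median of 0.78, while 49.5% of all tested probes were lower. Of these markers, 1 passed as higher, against 0.227% of all tested probes. An unadjusted p under 0.05 in limma was found for 4, against 8.17% of all tested probes in either direction. The marker that passed was Tmem119 (0.76, standard error 0.19, adjusted p 0.409), which cleared the background on 1 HZ array and 3 KO arrays. For Tmem119 every KO array lay above every HZ array, against 4.19% of all tested probes. The summed signal was 2.05 to 4.81 on HZ and 3.23 to 6.20 on KO. The brightest were Csf1r (0.37, standard error 0.28) and Cx3cr1 (0.93, standard error 0.33, adjusted p 0.540). Of 9 endothelial markers 5 were tested and 0 passed (median −0.0054), Cdh5, Emcn, Tek and Tie1 were well above background on no array, and the sums were 1.00 to 3.30 on HZ and 1.1 to 2.07 on KO, with Kdr at −0.79 and Egfl7 at 0.43.

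Epithelium of the ocular surface, which also makes keratins, claudins and P-cadherin, was marked by 7 genes, of which 3 were tested and 0 passed (median −0.35, sums 9.01 to 11.6 on HZ and 7.86 to 10.5 on KO). Its defining keratins Krt5, Krt12 and Krt14 were well above background on no array, while Epcam differed by −0.61 (standard error 0.56) and Trp63 by −0.088. The sums rest almost wholly on Trp63, with mean log2 signals of 3.33 on HZ and 3.24 on KO. Epcam (−4.34 and −4.95) and Krt15 (−5.13 and −5.48) were dim, so the sums do not measure the amount of this epithelium. Of 7 connective tissue markers 3 were tested and 0 passed (median −0.11, sums 0.491 to 0.923 on HZ and 0.807 to 1.19 on KO). Col1a1, Dcn and Lum were well above background on no array, and Pdgfra differed by 0.55 and Col1a2 by −0.32. These sums rest mostly on Pdgfra, with mean log2 signals of −0.69 on HZ and −0.14 on KO. Col1a2 (−3.10 and −3.43) and Postn (−5.31 and −5.42) were dimmer, so the sums do not measure the amount of connective tissue.

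**Figure D5:**
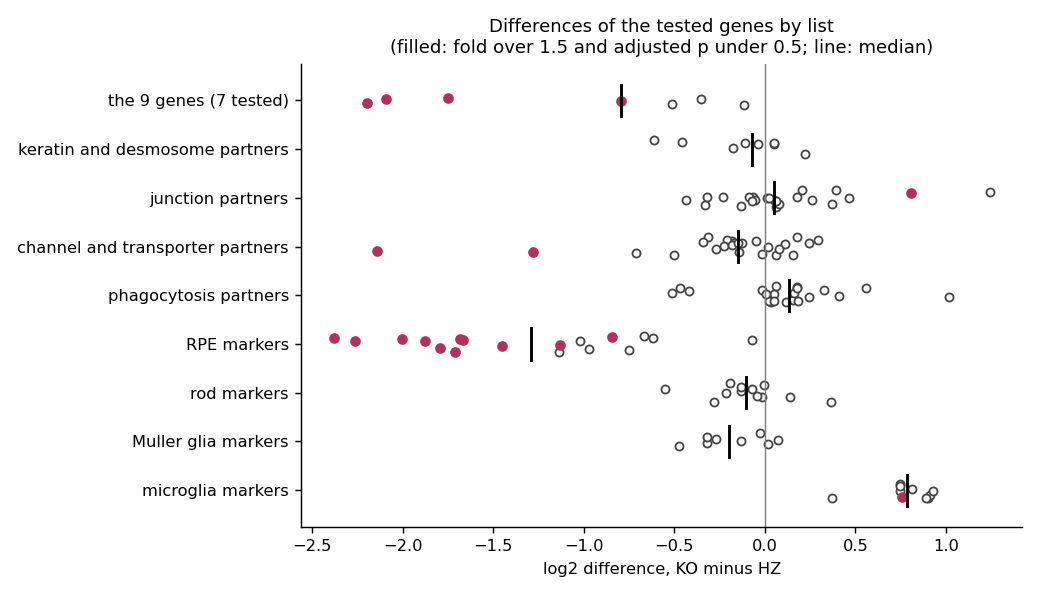
Log2 difference, KO minus HZ, of each tested gene by list, filled where the fold change was over 1.5 and the adjusted p under 0.5, with a line at the median of each list. The 7 tested genes have a median of −0.79 and the RPE markers −1.29, the medians of the partner lists, which are the related genes described above, lie between −0.15 and 0.13, and the microglia markers lie above 0.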

How the data were processed

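The deposited scanner files hold spot intensity values, background-subtracted by Agilent Feature Extraction 10.7.1.1 (per the submitters' processing notes), with marks for outliers and for signal well above background. A series-wide set of log2 values, which the authors had shifted to the 75 percentile and which proved to be centred on each probe's median, was an alternative. Here the intensities were put on a log2 scale, the 75th percentile of an array's non-control spots was subtracted, outlier spots were dropped and spots of a probe averaged. Probes that cleared the background on 4 arrays or more, with at least 3 values per group, were compared with limma 3.58.1 (lmFit and eBayes, two-sided, Benjamini-Hochberg over 34303 probes) in R 4.3.3, with version 1.17.8 of data.table. The script was tested on simulated data. A gene is given by its brightest probe, named through its RefSeq accession with RefSeq names of GRCm38.p6 (32994 probes matched). Plots were drawn with matplotlib 3.10.9.

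The members, gene lists and alternatives were chosen with earlier results of these data known. Named are the 9 genes, Lpcat1, the 4 largest differences of each partner list, the 2 brightest genes of each marker list and the 5 genes nearest in profile. Other genes are named as chosen after their values were seen.

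The labels share replicate numbers between groups. Arrays of the same number deviated together from their group means (r from 0.172 to 0.337), against r from −0.337 to 0.117 for other arrays, so the numbers pair the arrays. The number is also the slide column, and what else it stands for is not given in the sources used here, so a pairing of samples and one of array position cannot be told apart. The replicate number as a block was an alternative, and standard errors, intervals and p-values are from the fit without it unless stated. With the block the standard error was 0.47 for Krt8, 0.15 for Krt18, 0.31 for Cldn1 and 0.29 for Cdh3. It was 0.11 for Slc16a8, 0.19 for Best1 and 0.33 for Mertk. The other alternatives were quantile normalization, normexp with an offset of 50 on the median spot signal, a 75th percentile taken from probes detected on every array, the dim-probe filter removed or raised to all 8 arrays, trend and robust eBayes, the methods' t-test, the authors' values, the mean of a gene's probes and each array left out. The number of arrays limits the precision, and the number of saturated spots was 0.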

Additional observations from a re-analysis of the deposited data

Results flagged for a closer look

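Among 42 groups of 4 values checked for an array far from the others, 3 stood out, where chance gives about 1 in 20, or 2.1. The summed signal of the connective tissue markers, mostly that of Pdgfra, was 0.49 times the 75th percentile on HZ replicate 1. The other HZ arrays lay at 0.89 to 0.92. The summed signal of the endothelial markers was 2.07 on KO replicate 2, with the other KO arrays at 1.1 to 1.24. That of the microglia markers was 4.81 on HZ replicate 4, the array with the most non-uniform spots, with the other HZ arrays at 2.05 to 2.34. None of the 9 genes stood out in this way on any array.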

How the results depend on the processing

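The 7 tested genes were lower on KO under every alternative in which they were tested. Krt8, Cldn1, Cdh3 and Mertk were not tested when signal was required on all 8 arrays. The count of called genes was 4, and 3 with quantile normalization, 0 with no filter on dim probes (56605 tested), 1 of the 3 still tested when signal well above background was required on all 8 arrays, where their median difference was −0.51, and 0 to 4 with each array left out. The calls over all probes, 279 lower and 78 higher, became 178 lower with quantile normalization, 32 lower and 9 higher with no filter, and 913 lower and 254 higher with the replicate block. They ran from 0 to 1361 lower and from 0 to 373 higher with each array left out. The share of lower among all calls was 78.2%, 63.6% with quantile normalization and 54.0% without HZ replicate 4. The stricter thresholds called 0 probes, but 17 with normexp, 3 with trend and robust eBayes and 2 with quantile normalization or the methods' t-test. The median difference of the tested genes ran from −0.88 to −0.68 with each array left out. The pairing changed no call of the 9 genes. Apart from fewer or more probes tested and fewer arrays, the cause was not tested. Signal near background limits Cdh3, Cldn1, Krt8 and Mertk, and Cldn19 and Slc26a7 could not be tested.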
